A study of Caenorhabditis elegans with 26 samples.

Results

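Wild-type Caenorhabditis elegans larvae (strain N2) grown with the bacterium NA22 on peptone-rich NGM plates were compared with larvae of the same strain grown with the bacterium OP50 on NGM plates, early in the sampled part of larval life. The comparison uses 6 of the 26 libraries in the series. The NA22 larvae (course B) are the libraries titled 24, 26 and 28 h, and the OP50 larvae (course A) are those titled 21, 23 and 25 h. They were chosen by their labels and paired with a shift of 3 h (24 with 21, 26 with 23 and 28 with 25 h), since the courses passed through the same stages at different times. In both courses the larvae came from egg preparations, hatched overnight and were then plated with their bacterium. Whole worms were washed, and total RNA was depleted of ribosomal RNA and sequenced. Reads were counted for 20182 entries, all but 3 of them WormBase genes. Per the labels, course A grew slowly and was harvested 1 h later than its titles say, so that the 3 h between titles is 2 h between harvests.

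Bacteria are both the food and the microbial surroundings of C. elegans, and the intestine adjusts its metabolism to them. Vitamin B12, which the worm takes from its bacteria, is the cofactor of methylmalonyl-CoA mutase and of methionine synthase. When it is scarce, worms turn on a B12-independent propionate shunt that starts with the acyl-CoA dehydrogenase ACDH-1. Bacterial diet is also known to alter fatty acid desaturation, the uptake of heme, which worms cannot make, and the secreted lectins and lysozymes of the gut. Larvae molt repeatedly, and many skin and cuticle transcripts cycle with each molt, so that a mismatch of stage can look like a difference between diets.

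The 6 libraries held 17657524 to 22354120 counts in course A and 22587893 to 29566149 in course B. Across genes, the 24 h library of course B correlated best with the 22 h library of course A (Pearson r across genes of log2(CPM + 1) = 0.9815, against 0.9623 with the paired 21 h), where CPM is the count scaled to a library total of 1000000. The 26 h library correlated best with 24 h (0.9822, against 0.9719 with the paired 23 h). The 28 h library correlated best with its own partner, 25 h (0.9737). The shift of 3 h was therefore the closest for 1 of 3 pairs, and the counts of called genes are set beside shifts of 2 and 2.5 h. Summed yolk protein transcripts were 0.608 to 2.06 CPM in the 6 libraries and summed sperm genes 89.1 to 117 CPM, so both markers of later stages were low in both courses. Each course was grown once: the 3 pairs are successive times of 1 culture per bacterium, the p-values measure the spread between pairs, and bacterium, medium and day of growth cannot be told apart. In whole worms, a change in the share of a tissue and a change in RNA per cell cannot be told apart either.

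Of 13594 genes tested, 308 were higher with NA22 (2.27%) and 506 were lower (3.72%), at an adjusted p under 0.05 in edgeR's quasi-likelihood test with the pair as a block and an absolute log2 difference of 1 or more. Together these 814 genes were 5.99% of those tested. All 308 and all 506 had the same direction in 3 of 3 pairs, and in 265 and 423 of them the libraries of the courses did not overlap, as was the case for 18% of all genes in each direction. The median difference of the called genes was 1.27 and -1.43 on the log2 scale. A call at all of the shifts of 3, 2.5 and 2 h was made for 180 higher genes (1.32%) and 215 lower genes (1.58%), and no called gene turned sign at 2 h. The 3 NA22 libraries lay outside the range of all 16 OP50 libraries for 196 of the higher genes (1.44%) and 232 of the lower genes (1.71%). Among all genes tested, called or not, this held for 8.66% on the higher and 5.58% on the lower side. Below, calls "at every shift" and genes "outside the OP50 range" refer to these 2 stricter rules. Shares called in a gene list are to be read beside 2.27% higher and 3.72% lower over all genes. Differences are course B minus course A on the log2 scale. The value after ± is a standard error worked back from the test, the absolute difference divided by the square root of its F statistic. It can be too small where counts are few.

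The split between higher and lower genes depended on scaling. With TMM factors, 62.2% of the calls were lower and the median difference of all genes was -0.04. With total counts alone, 134 genes were higher (0.986%) and 1400 lower (10.3%), 91.3% of the calls were lower, and the median moved by -0.295. Differences are therefore read relative to the median gene. With no block for the pair, 196 genes were higher and 210 lower. Without the second or without the third pair, edgeR called 0 genes in either direction, with 1788 higher and 1591 lower genes at an unadjusted p under 0.05 without the second, and 2147 and 1986 without the third. DESeq2 on the same pairs called 261 higher and 157 lower genes without the second, and 455 and 364 without the third.

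**Figure D1:**
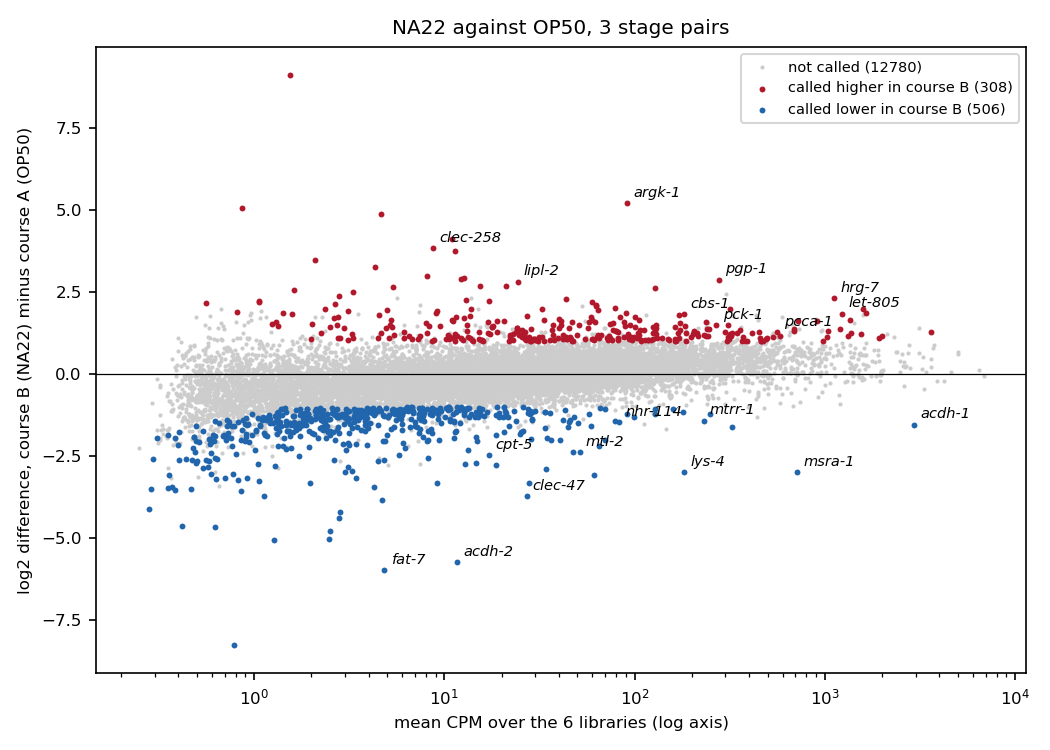
Each point is 1 of the genes tested, with its mean CPM over the 6 libraries (log axis) and its log2 difference (course B, NA22, minus course A, OP50). The 308 higher genes and the 506 lower genes lie on both sides at all levels, and the farthest labelled genes are argk-1 (5.22) and fat-7 (-5.98).

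Several genes of the propionate shunt and of vitamin B12 handling were lower with NA22. Of 17 members, all tested, 6 were lower (35.3%), 1 was higher (5.88%) and 10 did not pass, of which 3 were above 0, and the median difference was -0.64 against -0.04 for all genes. All 7 calls held at every shift and lay outside the OP50 range. The gene acdh-1, the first enzyme of the shunt, read 3127, 3763 and 5926 CPM in the OP50 libraries and 690, 2045 and 2053 CPM in the NA22 libraries. No NA22 library reached the lowest OP50 library, and the difference was -1.53 ± 0.28 (edgeR adjusted p = 0.0367, lower in 3 of 3 pairs). It missed the threshold without the first pair (edgeR adjusted p = 0.0547). Its close relative acdh-2 read 50.4, 14.9 and 3.37 CPM with OP50 and 0.242, 0.641 and 0.153 CPM with NA22, where the last 3 values rest on 6, 13 and 4 counts. Over these 3 OP50 times the acdh-2 transcript was thus lower at each later one, and lower still in every NA22 library (difference -5.73 ± 0.74, edgeR adjusted p = 0.0242). With all 26 libraries scaled together, it rose again with OP50, to 77.4 CPM at 27 h.

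The later steps of the shunt did not pass in edgeR. The enzymes ech-6, hach-1 and hphd-1 had differences of -0.64 ± 0.11, -0.37 ± 0.20 and -1.04 ± 0.30, and the last enzyme, alh-8, of 0.42 ± 0.10. For hphd-1 the OP50 libraries held 609 to 653 CPM and the NA22 libraries 173 to 418 CPM, without overlap, but the adjusted p was 0.0793 in edgeR. Without the first pair its difference was -0.64, and with total counts (edgeR adjusted p = 0.0406), at a shift of 2.5 h (0.0157) and in DESeq2 (adjusted p = 0.0101) it passed as lower.

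Of the genes on the B12-dependent routes of propionate breakdown and methionine synthesis, pcca-1 was higher and mmaa-1 and mtrr-1 were lower. The biotin-bearing subunit of propionyl-CoA carboxylase, pcca-1, read 309, 320 and 358 CPM with OP50 and 813, 766 and 813 CPM with NA22. Every NA22 library was above every OP50 library, and the difference was 1.28 ± 0.10 (edgeR adjusted p = 0.0168); with total counts it was 0.98, just under the minimum. The partner subunit pccb-1 (0.85 ± 0.10) and the mutase mmcm-1 (0.62 ± 0.09) were under the fold minimum. The gene mmaa-1, which loads cobalamin onto the mutase, read 237, 314 and 498 CPM with OP50 and 111, 160 and 167 CPM with NA22 (-1.22 ± 0.15). The methionine synthase reductase mtrr-1, which keeps the B12-dependent methionine synthase active, read 194, 368 and 453 CPM with OP50 and 88.7, 149 and 131 CPM with NA22 (-1.41 ± 0.16). Both were lower without overlap, whereas the synthase itself, metr-1, did not pass (-0.68 ± 0.21).

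Of the 3 nuclear hormone receptors in this list, nhr-68 and nhr-114 were lower. The receptor nhr-68, an activator of the shunt, read 205, 207 and 232 CPM with OP50 and 92.1, 101 and 114.4 CPM with NA22 (-1.07 ± 0.08). The receptor nhr-114, known for switching on methionine cycle genes when B12 is low, read 103, 128 and 135 CPM with OP50 and 41.1, 50.7 and 41.3 CPM with NA22 (-1.45 ± 0.12). In both genes the spread within a course was small beside the distance between the courses. The third receptor, nhr-10, did not pass (-0.30 ± 0.15, edgeR adjusted p = 0.227), as were mce-1 (-0.33 ± 0.15) and mmab-1 (-0.37 ± 0.10), which did not pass the rule either.

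**Figure D2:**
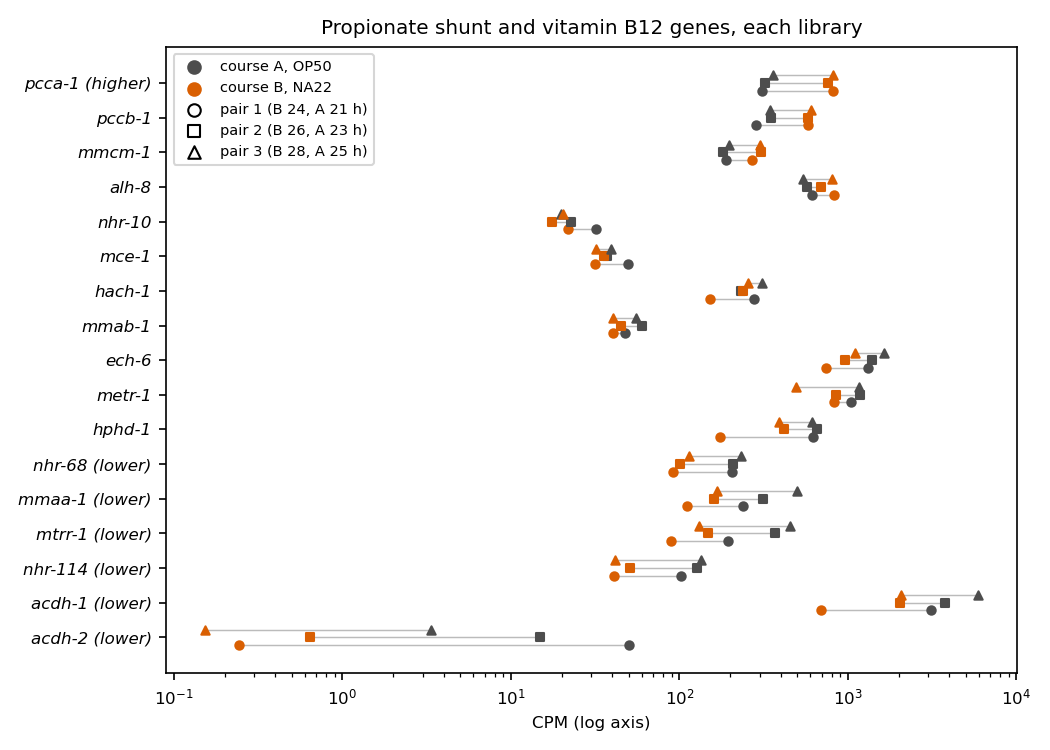
CPM (log axis) of the 17 genes of the propionate shunt and of B12 handling in each of the 6 libraries, with lines joining the libraries of a pair. The NA22 points of acdh-1, nhr-68, nhr-114, mmaa-1 and mtrr-1 lie left of their OP50 points in all 3 pairs, those of acdh-2 far left, and those of pcca-1 right.

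In the sulfur branch of methionine metabolism 2 genes for the steps from homocysteine to cysteine were called higher. Cystathionine beta-synthase, cbs-1, read 106, 70.4 and 64.2 CPM with OP50 and 342, 311 and 201 CPM with NA22 (1.83 ± 0.14). Cystathionine gamma-lyase, cth-1, read 18.7, 11.4 and 8.89 CPM with OP50 and 46.8, 35.4 and 75.1 CPM with NA22 (1.99 ± 0.40, edgeR adjusted p = 0.0438). The cth-1 call was lost without the first pair (edgeR adjusted p = 0.0728) and without the filter on low counts (0.0653). The sulfide oxidising enzyme sqrd-1 was also higher (1.58 ± 0.17), at a low level of 3.68 to 4.58 CPM with OP50 and 10.6 to 13.6 CPM with NA22. An S-adenosylmethionine synthase, sams-3, was lower, with 98.5, 117 and 129 CPM against 44.6, 41.1 and 41.97 CPM (-1.43 ± 0.13). Of the 20 tested members of the methionine cycle and phosphocholine list, these 3 were called (2 higher, 1 lower) and the median was -0.32.

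Among fatty acid genes, the stearoyl-CoA desaturase fat-7 stood far apart. It read 7.36, 13.6 and 7.73 CPM with OP50 and 0.161, 0.148 and 0.115 CPM with NA22, from 188, 331 and 147 counts against 4, 3 and 3. The NA22 libraries were thus close to the limit of detection, and the difference was -5.98 ± 0.28 (edgeR adjusted p = 0.0168). The fat-7 relatives fat-6 and fat-5 did not pass in edgeR. The gene fat-6, at 518 to 723 CPM with OP50 and 368 to 413 CPM with NA22, differed by -0.59 ± 0.13, and fat-5 by -1.47 ± 0.50 (edgeR adjusted p = 0.11). DESeq2 called fat-5 lower (-1.48, adjusted p = 0.0095), as did edgeR at a shift of 2.5 h (adjusted p = 0.0443). The desaturases of polyunsaturated fat were all below 0, from -0.44 ± 0.13 for fat-4 and -0.48 ± 0.11 for fat-1 to -0.71 ± 0.21 for fat-3 and -0.97 ± 0.10 for fat-2, and all missed the rule. With total counts, fat-2 and fat-3 passed as lower.

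The Mediator subunit mdt-15, a coactivator of desaturase genes, was higher (50.6 to 63.5 CPM with OP50, 109 to 138 CPM with NA22, 1.14 ± 0.14). Of the 25 tested genes of fatty acid synthesis and desaturation, fat-7 and mdt-15 were the 2 called. Among 42 genes of fatty acid oxidation, 2 were higher (4.76%) and 3 lower (7.14%), and acdh-1 and acdh-2 are 2 of the lower. The third was the carnitine palmitoyltransferase cpt-5, at 24.7, 42.2 and 21.05 CPM with OP50 and 7.06, 3.70 and 4.85 CPM with NA22 (-2.45 ± 0.40). The acyl-CoA oxidase acox-1.2 of ascaroside synthesis (1.27 ± 0.12) and the enoyl-CoA hydratase ech-5 (1.03 ± 0.10) were higher, but neither was called at every shift.

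Of 25 lipase and lipid droplet genes, 3 were higher (12%) and 1 was lower, with a median of -0.18. The lysosomal lipase relative lipl-2 read 3.48, 5.81 and 9.79 CPM with OP50 and 33.6, 45.96 and 46.9 CPM with NA22. Even the highest OP50 library was below the lowest NA22 library (2.83 ± 0.24), and lipl-5 was higher by a smaller amount (1.15 ± 0.13).

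Transcripts for a few steps of energy metabolism were higher. The arginine kinase argk-1, an enzyme that stores phosphate energy, read 6.42, 5.24 and 2.47 CPM with OP50 and 186, 113 and 235 CPM with NA22. The 3 NA22 libraries were far above their 3 partners, although over all 26 libraries the highest OP50 value (28.1 CPM) and the lowest NA22 value (28.2 CPM) nearly met. Among called genes with a name and at least 10 CPM in a course it had the largest difference upward (5.22 ± 0.52, edgeR adjusted p = 0.0189). The gluconeogenic enzyme pck-1, phosphoenolpyruvate carboxykinase, read 144, 140 and 133 CPM with OP50 and 432, 437 and 327 CPM with NA22 (1.51 ± 0.11). Glycogen phosphorylase, pygl-1, read 99.3, 116 and 145 CPM with OP50 and 352, 358 and 359 CPM with NA22 (1.59 ± 0.13). In both, the courses were far apart compared with the spread within them.

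Of 30 genes of glycolysis, gluconeogenesis and trehalose, 3 were higher (10%), none was lower, and 27 had a difference above 0 (median 0.42). With total counts 2 were higher and 1 lower, and the median was 0.13. Of 27 genes of the citric acid and glyoxylate cycles, 4 were higher (14.8%), none was lower, and 24 were above 0 (median 0.31; 0.0088 with total counts). Among these, dihydrolipoyl dehydrogenase, dld-1, read 94.9 to 99.2 CPM with OP50 and 238 to 271 CPM with NA22 (1.36 ± 0.10). Malate dehydrogenase mdh-2 read 113 to 124 CPM with OP50 and 237 to 345.1 CPM with NA22 (1.32 ± 0.12). All 7 calls in the 2 lists held at every shift and lay outside the OP50 range.

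Genes of heme supply were singled out after their values were seen. Of 9 tested heme-responsive genes, 4 were higher and 1 was lower. The gene hrg-7, which encodes a secreted protease-like protein that signals heme status from the gut, read 280, 489 and 344.6 CPM with OP50 and 1878, 2302 and 1392 CPM with NA22 (2.33 ± 0.17). The heme importer hrg-1 read 13.2, 17.4 and 32.9 CPM with OP50 and 51.7, 61.7 and 70.8 CPM with NA22 (1.63 ± 0.20), and missed the threshold without the first pair. The courses did not overlap for either gene, nor for the heme exporter mrp-5 (184 to 217 CPM against 474 to 493 CPM, 1.25 ± 0.10). Also higher were hrg-2 (1.62 ± 0.16), whose libraries overlapped between the courses, and hrg-3 (2.39 ± 0.49), which carries heme to embryos. The hrg-3 call (edgeR adjusted p = 0.0404) rests on 53, 17 and 5 counts with OP50. The lower gene, hrg-5 (-2.36 ± 0.37), had at most 26 counts in a library and was not called at every shift.

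Other transport genes moved one by one. Of 49 ABC transporters, 2 were higher (4.08%) and 1 was lower (2.04%), against 2.27% and 3.72% of all genes, so the family as a whole was near the share over all genes. The P-glycoprotein gene pgp-1 read 83.6, 55.1 and 61.1 CPM with OP50 and 501, 560 and 406 CPM with NA22, so that the NA22 libraries were several-fold above all OP50 libraries (2.89 ± 0.19). The peroxisomal transporter pmp-5 read 316, 515 and 611 CPM with OP50 and 78.2, 222 and 204 CPM with NA22 (-1.60 ± 0.18). The inositol transporter hmit-1.1 (-1.83 ± 0.25) and the amino acid transporter aat-2 (-1.43 ± 0.30) were the 2 lower genes (7.69%) among 26 peptide, amino acid and sugar transporters, of which none was higher.

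Defence gene families held members that were higher and members that were lower. The table holds 240 C-type lectin genes, 104 of which had enough counts for the test: 10 were higher (9.62%) and 11 lower (10.6%), with a median of -0.05. The summed lectin level on the TMM scale was 3436 to 4059 CPM with OP50 and 5156 to 5971 CPM with NA22. Lectins are secreted or membrane proteins with a sugar-binding fold, many of them made in the gut. On the higher side, clec-258 read 0.430, 1.11 and 1.47 CPM with OP50 and 3.63, 15.7 and 30.1 CPM with NA22 (3.84 ± 0.29). The lectin clec-42 read 3.68, 4.18 and 1.21 CPM with OP50 and 30.9, 24.1 and 12.2 CPM with NA22 (2.95 ± 0.21). Their levels ran in opposite directions over the 3 pairs, clec-258 upward and clec-42 downward in course B, yet each was above its OP50 libraries throughout. The lectins clec-169 (2.24 ± 0.13) and clec-17 (1.99 ± 0.36) were higher too.

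On the lower side, clec-47 read 57.1, 50.02 and 43.04 CPM with OP50 and 5.81, 4.04 and 2.26 CPM with NA22 (-3.71 ± 0.23). The lectin clec-5 read 56.9, 43.9 and 36.2 CPM with OP50 and 12.3, 10.01 and 12.4 CPM with NA22 (-1.96 ± 0.17). Neither gene overlapped between the courses.

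Of 11 tested lysozyme genes, enzymes that cleave bacterial walls, 3 were lower (27.3%) and none was higher, with a median of -0.60. The lower ones, lys-4, lys-5 and lys-6, are neighbours among the tested genes in RefSeq gene order. Of these, lys-5 was not called at every shift and was near the limit of detection, with means of 1.21 CPM with OP50 and 0.046 CPM with NA22. How the authors assigned reads shared by similar genes is not given in the sources used here. The gene lys-4 read 218, 477 and 273 CPM with OP50 and 48.4, 45.3 and 26.8 CPM with NA22 (-2.97 ± 0.31). The gene lys-6 was low throughout, at 1.60 to 2.16 CPM with OP50 and 0.161 to 0.229 CPM with NA22 (-3.26 ± 0.30). Of 75 other immune effector genes, 2 were higher and 4 lower (2.67% and 5.33%, against 2.27% and 3.72% of all genes), with spp-16 among the lower (-1.08 ± 0.18).

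Among detoxification families the glucuronosyltransferases, which attach sugars to foreign compounds, had 8 lower genes of 64 tested (12.5%) and 1 higher. The gene ugt-28 read 54.3, 17.9 and 47.4 CPM with OP50 and 12.3, 7.35 and 13.2 CPM with NA22 (-1.77 ± 0.20). Among the tested genes in gene order it forms a run with ugt-26 and ugt-27, also lower but not called at every shift. The mean of ugt-27 was 0.99 CPM with OP50 and 0.24 CPM with NA22. Of the 8 lower genes, 6 were called at every shift and 3 lay outside the OP50 range. The single higher gene, ugt-44 (1.27 ± 0.16), was not called at every shift.

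Of 58 cytochrome P450 genes, 3 were higher (5.17%) and 2 lower (3.45%), against 2.27% and 3.72% of all genes. The gene cyp-37B1 had the largest difference upward among them (3.76 ± 0.44), but the courses overlapped. It read 0.470, 0.696 and 3.31 CPM with OP50 and 2.82, 19.1 and 41.7 CPM with NA22, higher at each later of these 3 times in both courses. With all 26 libraries scaled together, it was back at 11.2 CPM at 30 h with NA22. The gene cyp-35A3, of a family induced by foreign compounds, read 8.69, 46.8 and 44.99 CPM with OP50 and 3.35, 5.03 and 3.71 CPM with NA22 (-2.77 ± 0.52). Of 40 glutathione transferases, gst-7 was higher (2.5% of them, 1.09 ± 0.11) and 2 were lower (5%). At a shift of 2 h 5 were higher and 0 lower, and neither of the 2 was called lower at every shift. The gene gst-38, named because an earlier comparison of the courses had picked it, did not pass here (1.30 ± 0.34, edgeR adjusted p = 0.0671). It passed as higher in DESeq2 (1.32, adjusted p = 0.00212), at a shift of 2 h (1.76, edgeR adjusted p = 0.00998) and in the later pairs (2.43).

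Stress genes gave single changes. The methionine sulfoxide reductase msra-1, which repairs oxidised methionine, read 437, 998 and 2455 CPM with OP50 and 78.3, 160 and 176 CPM with NA22. All OP50 libraries were above all NA22 libraries, most so in the last pair (-2.97 ± 0.33). The metallothionein mtl-2, a gut protein that binds metals, read 60.1, 64.4 and 135 CPM with OP50 and 10.5, 17.5 and 20.7 CPM with NA22 (-2.37 ± 0.19). Of 19 heat shock proteins and chaperones, 4 were higher (21.1%) and none was lower, with a median of 0.33, but only the small heat shock protein sip-1 (1.96 ± 0.13) was called at every shift. With total counts 1 was higher and 1 lower, and the median was 0.03. The mitochondrial chaperonin hsp-60 read 591 to 696 CPM with OP50 and 1273 to 1562 CPM with NA22 (1.15 ± 0.13, 0.92 at a shift of 2 h). Of 12 hypoxia and hydrogen sulfide genes edgeR, DESeq2 and limma called 0, with 2 above and 3 below at an unadjusted p under 0.05 in edgeR. At a shift of 2 h edgeR called 1 of them higher. The sulfide oxidising sqrd-1, called higher above, was not in this list but among amino acid breakdown genes. Of 79 ribosomal protein genes edgeR, DESeq2 and limma also called 0, with 14 above and 12 below at an unadjusted p under 0.05 in edgeR. At a shift of 2 h edgeR called 1 of these lower, and with total counts 3.

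**Figure D3:**
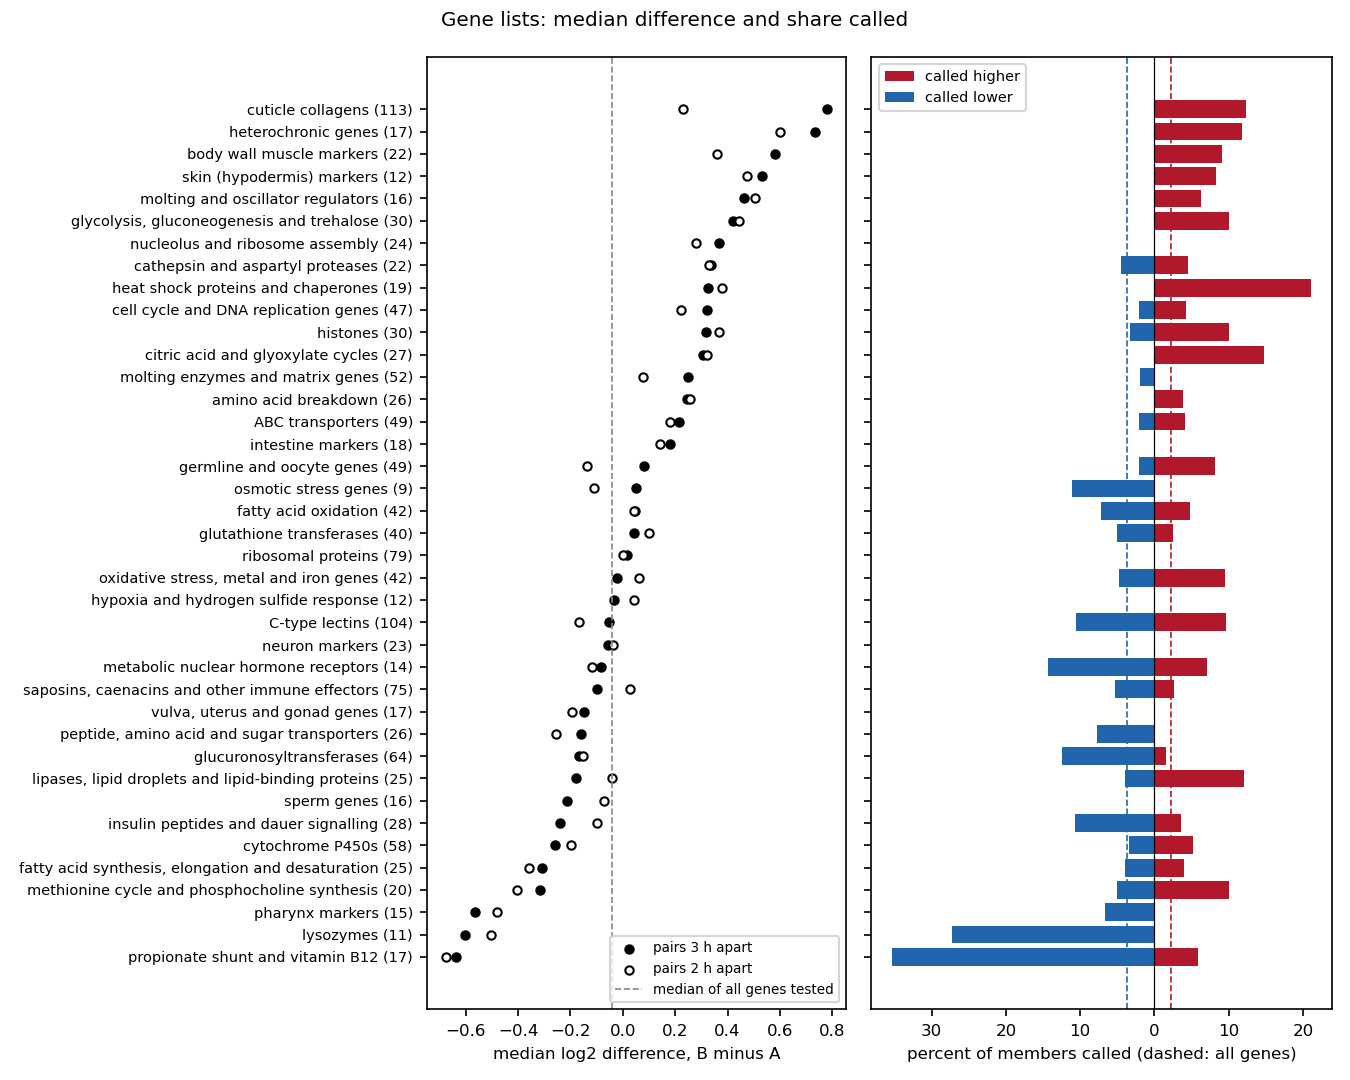
Left, the median log2 difference of each gene list with 9 or more tested genes (number of tested genes in brackets) with pairs 3 h apart (filled) and 2 h apart (open), beside the median of all genes. Right, the percentage of members called higher or lower, with dashed lines at 2.27% and 3.72% for all genes; the cuticle collagens have the highest median at 3 h, 0.78, and 0.23 at 2 h.

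Stage and tissue lists were read for what else moved with the course. Of 175 collagen genes, 113 were tested: 14 were higher (12.4%) and none was lower, with a median of 0.78. At a shift of 2 h the median was 0.23, with 8 higher and 2 lower, 6 of the 14 were called at every shift, and 2 of the 14 lay outside the OP50 range. DESeq2 called 32 higher and 1 lower. The cuticle collagen col-158 read 11.3, 1.35 and 0.210 CPM with OP50 and 41.5, 11.3 and 7.57 CPM with NA22 (2.90 ± 0.58). Over these 3 times it was lower at each later one in both courses, with overlap between the courses. With all 26 libraries scaled together, col-158 rose again to 18.3 CPM at 29 h with OP50 and 36.3 CPM at 32 h with NA22. The collagen col-36, singled out after its values were seen, had 0 counts in all 3 OP50 libraries and 39, 66 and 115 counts with NA22, which is at least 23.2-fold higher against a mean floor of 0.132 CPM (3 counts in each library). Of 16 molting and oscillator regulators 1 was higher, myrf-1, a membrane-bound transcription factor needed for larval progress. It read 117, 103 and 32.1 CPM with OP50 and 491, 182 and 110 CPM with NA22, with overlap between the courses (1.56 ± 0.28). How much of the collagen and myrf-1 differences goes with residual stage was not tested beyond these shifts.

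Summed muscle and skin markers did not overlap between the courses on the TMM scale, but this rests on the scaling. The TMM factor in the fit of 6 libraries was 1.14 for the 21 h OP50 library and 0.898 for the 26 h NA22 library. Taken back to total counts, the 21 h OP50 sum is above the 26 h NA22 sum in both lists, so that the courses overlap. By total counts the median difference was 0.28 for muscle and 0.23 for skin, with 1 gene called higher in each. At a shift of 2 h the medians were 0.36 and 0.48. Of 22 body wall muscle markers, 2 were higher and none was lower, the median was 0.58, and their summed level was 12910 to 17530 CPM with OP50 and 21480 to 27520 CPM with NA22. Troponin T, mup-2, read 483, 315 and 393 CPM with OP50 and 973, 912 and 1051 CPM with NA22 (1.32 ± 0.14, 0.95 at a shift of 2 h). Of 12 skin markers, 1 was higher, let-805, which encodes the attachment protein myotactin between muscle and skin. It read 659, 508 and 424 CPM with OP50 and 2630, 1652 and 1526 CPM with NA22 (1.85 ± 0.10). The summed skin markers were 2704 to 4324 CPM with OP50 and 5244 to 7338 CPM with NA22.

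On the same scale, which all sums below use, intestine, neuron and pharynx markers overlapped in sum. Of 18 intestine markers edgeR, DESeq2 and limma called 0, with 6 above and 2 below at an unadjusted p under 0.05 in edgeR, and the summed level was 3121 to 4088 CPM with OP50 and 3519 to 4698 CPM with NA22. Of 23 neuron markers they also called 0, with 4 above and 5 below at an unadjusted p under 0.05, and the sums were 1062 to 1318 CPM and 1213 to 1509 CPM. Of 15 pharynx markers, 1 was lower (phat-6, -1.10 ± 0.13), 12 were below 0 and the median was -0.57, with 8 below at an unadjusted p under 0.05 in edgeR. At a shift of 2 h 3 were called lower and with total counts 5, and the sums were 1449 to 3193 CPM with OP50 and 1305 to 1989 CPM with NA22. Of 49 germline and oocyte genes 4 were higher (8.16%) and 1 lower (2.04%), and 2 of these 5 were called at every shift. Of 16 sperm genes edgeR called 0, with 3 above and 3 below at an unadjusted p under 0.05, and DESeq2 called 1 higher and 1 lower. The germline sums were 1575 to 1890 CPM with OP50 and 2280 to 2885 CPM with NA22. Of 17 heterochronic genes, which time larval cell fates, 2 were higher and none was lower, 16 were above 0 and the median was 0.73 (0.60 at a shift of 2 h). With total counts edgeR called 0 of them, and the median was 0.44. Their sums were 1207 to 1361 CPM with OP50 and 1866 to 2263 CPM with NA22, and lin-66 read 11.1, 8.64 and 9.37 CPM against 19.0, 16.9 and 26.3 CPM (1.08 ± 0.18). Of 47 cell cycle and DNA replication genes 2 were higher (4.26%) and 1 lower (2.13%). Their median was 0.32 (0.03 with total counts), with sums of 2096 to 2774 CPM and 3422 to 3579 CPM. Of 30 tested histone genes 3 were higher, 0 of them at every shift, and 1 was lower. The part of muscle, skin, pharynx, heterochronic, cell cycle and germline content in the other differences was not tested.

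The courses also hold 4 later pairs, titled 30, 32, 34 and 36 h with NA22 and 27, 29, 31 and 33 h with OP50. These share no library with the 3 pairs above. Their calls come from a joint fit of all 14 libraries, so that scaling and spread were estimated with the early libraries included. The early calls come from the fit of 6 libraries, so the 2 sets of counts are not on equal terms. In the fit of 14 libraries the early counts were 342 higher and 826 lower. Of the 308 higher genes 241 were also called higher later, which is 78.2% of the early and 26.3% of the 917 later genes. Of the 506 lower genes 361 were also called lower later (71.3% of the early and 30.8% of the 1172 later genes). None was called in the opposite direction, and 307 and 495 kept their sign. In the later pairs 4.09% of the genes tested here were higher and 7.04% lower. The later pairs come from the same 2 cultures and are no independent growth.

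A test of the early against the later difference, in 14 libraries, called 0 of 15591 genes in edgeR, with 702 at an unadjusted p under 0.05 and 34 called by DESeq2. No gene can be said from edgeR to differ in the earlier pairs alone. In values (later ones from the 14-library fit), clec-47 differed by -3.71 early and -5.11 later, msra-1 by -2.97 and -3.70, and sams-3 by -1.43 and -0.76. The gene acox-1.2 differed by 1.27 early and 0.23 later, and the contrast had an edgeR adjusted p of 0.938.

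**Figure D4:**
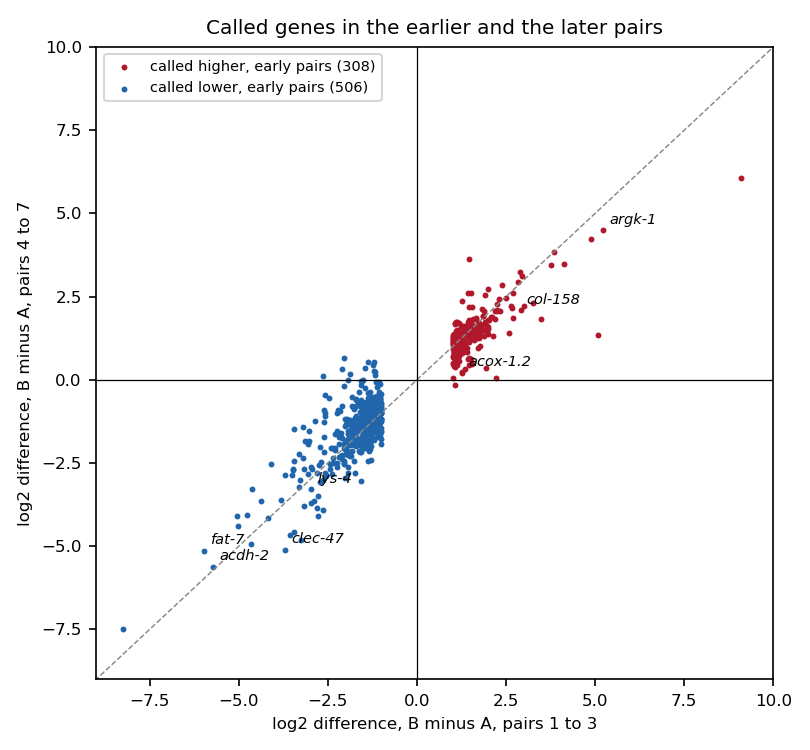
Log2 difference (course B minus course A) of the genes called in the 3 earlier pairs (x axis, fit of 6 libraries). The y axis gives the 4 later pairs, from the fit of 14 libraries, and the dashed line marks equal values. Of the 308 higher genes 307 and of the 506 lower genes 495 have the same sign on both axes.

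Some of these genes kept the courses apart over the whole sampled period. With all 26 libraries scaled together, every one of the 10 NA22 libraries was above every one of the 16 OP50 libraries for 378 genes (2.78%) and below for 255 genes (1.88%), and these held 134 of the 308 and 115 of the 506 called genes. The gene hrg-7 ranged from 170 to 564 CPM with OP50 and from 1060 to 2960 CPM with NA22. The gene fat-7 ranged from 5.39 to 21.1 CPM with OP50 and from 0.115 to 0.632 CPM with NA22. The gene acdh-1 ranged from 3202 to 6100 CPM with OP50 and from 486 to 2953 CPM with NA22, so that its ranges came close but did not meet. By contrast, col-158 ranged from 0.103 to 18.3 CPM and from 1.58 to 52.7 CPM.

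**Figure D5:**
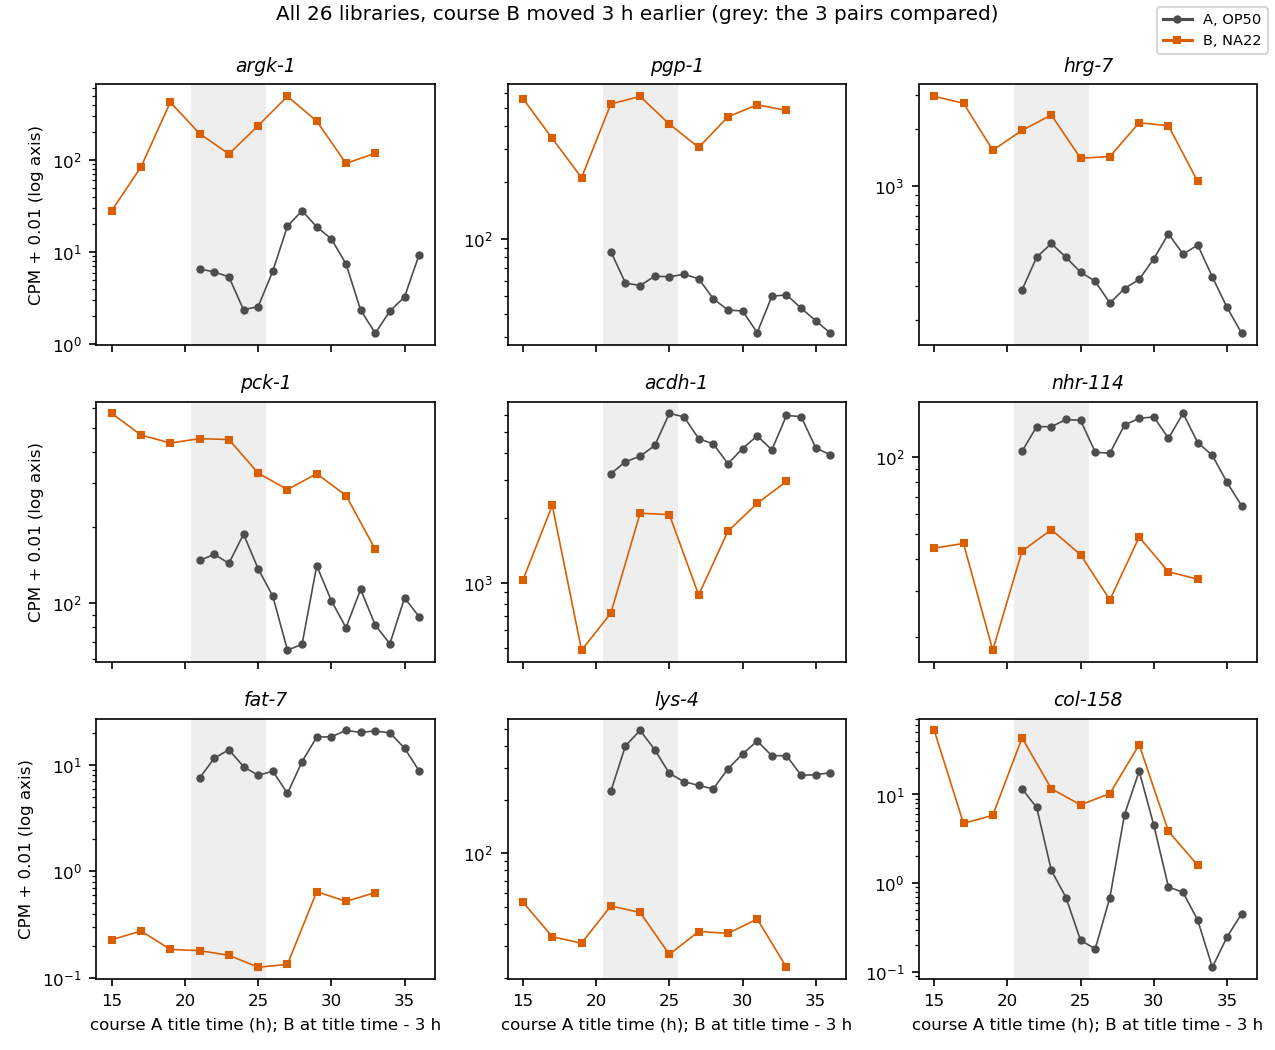
CPM + 0.01 (log axis) of 9 genes in all 26 libraries by title time, with course B moved 3 h earlier and the 3 pairs in grey. The lines of hrg-7, fat-7 and acdh-1 do not overlap in level at any time, whereas col-158 passes through overlapping levels in both courses.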

How the data were processed

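The authors deposited raw counts per gene for all 26 libraries and log2 values. The latter were recomputed within 5e-05 by scaling counts to their course's mean total and adding 8 before the log. The count table was used with all of its 20182 rows, 3 of which are no WormBase identifiers. Per the labels' protocols the library kit was ScriptSeq v2. For aligner, counting tool, use of strand and genome build the entry is: not given in the sources used here. Thus overlapping or similar genes can share reads, and no coordinates are printed. The number of value columns left unused was 0.

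Groups and pairs were taken from the labels. Genes reaching 10 counts (scaled to the median total) in 3 or more libraries were fitted with edgeR 4.0.16 in R 4.3.3 (TMM, robust quasi-likelihood F test, pair as a block, 2 residual degrees of freedom, Benjamini-Hochberg adjustment over all genes). CPM values use TMM-scaled totals, and list sums use those of all 26 libraries scaled together. Deviations from the course means of paired libraries correlated at 0.748, 0.725 and 0.812 for the 3 pairs; the pairing comes from the shift in title times. Alternatives were DESeq2 1.42.0, limma 3.58.1 on log2 CPM (prior count 2), other scalings, filters, folds and shifts, and each pair left out. Added after the data were seen were DESeq2 and limma without each pair, calls at all shifts and calls outside the OP50 range.

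Genes were named by rule from calls with a gene name, at least 10 mean CPM in a course and 3 of 3 pairs alike: the 10 highest and the 10 lowest, the 2 highest and 2 lowest of each metabolic, defence, stress, signalling and growth list, and 1 of each for stage and tissue lists. All of the B12 list and of the fat genes could be named, as could argk-1, pgp-1, clec-17, gst-38, acdh-2, fat-7, clec-47, lys-6 and ugt-15, known from earlier values. The comparison and the 40 gene lists were chosen with earlier results of these data known.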

Additional observations from a re-analysis of the deposited data

How the results depend on the processing

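Counts of genes are given as higher and lower with NA22, beside 308 and 506. They were 134 and 1400 by total counts, 196 and 210 with no replicate block, 1546 and 1085 with no fold minimum, and 34 and 103 with a log2 minimum of 2. At a shift of 2.5 h 1123 were lower, in the fit of 14 libraries 826 were lower, and at 4 h, where 2 pairs remain, both counts were 0 (1023 and 819 at an unadjusted p under 0.05). Calls at all 3 shifts numbered 180 and 215, and calls outside the OP50 range 196 and 232. With a pair left out, edgeR gave 0 to 325 and 0 to 246, limma 0 to 341 and 0 to 271, and DESeq2 261 to 455 and 157 to 364 (242 lower without the first). The early against later test called 0 genes in edgeR (0 to 1 with a pair left out) and 34 in DESeq2. Of the 68 named called genes none turned sign. All 68 held in DESeq2 and limma, 59 at 2 h, 56 by total counts, 64 without the low count filter, 57 without the first pair and 46 with no replicate block; the cause was not tested. Lost with no replicate block were, among others, acdh-1 (edgeR adjusted p = 0.135), acdh-2 (0.0502), mmaa-1 (0.069), mtrr-1 (0.0684), msra-1 (0.0575), pmp-5 (0.106), clec-258 (0.0577) and cyp-37B1 (0.122). Without the first pair sams-3, nhr-68 and nhr-114 kept their calls, and cpt-5 (0.0578), myrf-1 (0.0918), aat-2 (0.0733) and spp-16 (-0.90) lost theirs. Lost by total counts were 12 higher genes, all between 0.74 and 0.98, among them mrp-5, mdt-15, lipl-5, hsp-60 and gst-7. Without the filter cyp-35A3 (0.0663) and col-158 (0.0643) were lost. Of the genes that the naming rule took but that are not described, pqn-74 and nas-3 moved by over 1.5 times at 2 h (1.33 from 2.70 and -0.32 from -1.01). Genes under about 1 CPM rest on few counts, which limits fat-7, acdh-2, lys-5 and lys-6 with NA22. The standard errors given for fat-7 and lys-6 are smaller than the counting error of so few reads.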

Other observations

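Some called genes stood beside each other among the tested genes in RefSeq gene order, in which 12700 of the tested genes could be placed. Untested genes were skipped, so members of a run can have other genes between them. How many neighbours calls of this number would give by position alone was not tested. The 308 higher genes held 11 runs of 2 or more neighbours with 25 genes, and the longest run had 4 genes (F22B8.7, str-7, cth-1 and argk-1). The 506 lower genes held 26 runs with 58 genes. The longest had 4 genes (K09F6.6, K09F6.9, K09F6.10 and K09F6.7), and others joined ugt-37, fat-7 and F10D2.10, or acdh-1 and C55B7.3, or nhr-101 and nhr-68. Runs of similar genes, such as lys-4 to lys-6, and of unlike genes, such as pmp-5, str-180 and cest-28, both occurred. Whether neighbours share reads was not tested, since the use of strand is not given in the sources used here. These runs were looked for after the values were seen.

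Of the 814 called genes, 130 belong to a list and 399 have no gene name of the letter and number kind. Among these, Y38H6C.21 had 57, 21 and 31 counts with OP50 and 0 in all 3 NA22 libraries, which is at least 12.3-fold lower against a mean floor of 0.128 CPM (3 counts in each library). Among 28 insulin peptide and dauer signalling genes, 1 was higher and 3 were lower, and among these ins-7, an insulin-like peptide that the gut can secrete, differed by -1.99 and was picked after its value was seen. The F-box gene fbxa-72 (-2.19), the sugar transporter relative fdgt-2 (-2.25) and slc-36.5 (-2.72) were further named genes that were lower with NA22.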
